A study of Homo sapiens with 12 samples.

Results

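The 7 long noncoding RNAs described here are PURPL, MIR34AHG, PVT1, LINC-PINT, NEAT1, MALAT1 and TP53TG1, out of 62700 genes in the deposited table. They were picked by gene name, with earlier results of these data known. Most are known to respond to the tumour suppressor p53, and NEAT1 and MALAT1 are abundant RNAs retained in the nucleus. Poly(A) RNA was sequenced from HCT116 TIM-mAID cells. HCT116 is a human colorectal carcinoma line with wild-type p53, and in this derivative the replication fork protein TIMELESS carries a mini auxin-inducible degron (mAID) knocked in by genome editing. All 12 libraries carry this tag, and no library of untagged cells was analysed here. The cells received 5-Ph-IAA with ATRi (5-Ph-IAA/ATRi), 5-Ph-IAA, ATRi, or the solvent DMSO, with 3 libraries in each group and collection at 40 h. 5-Ph-IAA, an auxin analogue that triggers degradation of degron-tagged proteins, was given at 1 µM. ATRi is ceralasertib, an inhibitor of the replication stress checkpoint kinase ATR, also given at 1 µM. The labels do not state which ubiquitin ligase adaptor the cells express or whether the line is 1 clone. The design asks how loss of TIMELESS and ATR inhibition act alone and together.

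Long noncoding RNAs are transcripts that are not translated into protein, and several are switched on when p53 binds near their start. PURPL lowers p53 levels in colorectal cancer cells, MIR34AHG is the precursor transcript of the microRNA miR-34a, and TP53TG1 was first described as a p53-induced RNA after DNA damage. NEAT1 is the scaffold of nuclear bodies called paraspeckles, and MALAT1 collects at nuclear speckles, where splicing factors are stored. The mature 3′ ends of MALAT1 and of the long NEAT1 isoform form a triple helix in place of a conventional poly(A) tail, so their capture by poly(A) selection differs from that of a messenger RNA. In bulk RNA, fewer cells of a kind and less RNA per cell cannot be told apart.

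The start of PURPL is shown first because its RNA had the widest fold range of the 6 lncRNAs tested, and the start of MIR34AHG because its RNA moved with it. Both windows run from 250 bases before to 50 bases after the annotated start in RefSeq (GRCh38.p14), at chr5:27472042-27472341 on the plus strand and chr1:9182289-9182588 on the minus strand. Capitals mark matches to the p53 half-site consensus, a 10-base motif that reads the same on both strands.
PURPL promoter: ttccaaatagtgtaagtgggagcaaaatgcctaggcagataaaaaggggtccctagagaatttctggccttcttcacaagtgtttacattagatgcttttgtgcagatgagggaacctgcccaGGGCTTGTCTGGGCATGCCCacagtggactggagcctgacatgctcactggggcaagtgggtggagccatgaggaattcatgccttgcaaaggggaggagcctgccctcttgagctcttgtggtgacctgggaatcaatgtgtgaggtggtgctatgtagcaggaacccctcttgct
MIR34AHG promoter: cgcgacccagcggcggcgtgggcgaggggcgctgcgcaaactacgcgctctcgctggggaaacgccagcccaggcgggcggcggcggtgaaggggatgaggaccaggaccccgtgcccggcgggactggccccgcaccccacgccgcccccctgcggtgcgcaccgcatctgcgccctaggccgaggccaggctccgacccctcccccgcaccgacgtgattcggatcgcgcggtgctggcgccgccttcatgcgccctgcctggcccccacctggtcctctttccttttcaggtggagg
The PURPL window held 2 exact half-sites that sit side by side with no spacer, the first starting at -127 from the start of the gene. Together they form the 20-base run GGGCTTGTCTGGGCATGCCC, with 0 mismatches. Of 35116 promoter windows in the table, 6.63% held an exact half-site, 0.0285% held a pair of exact half-sites at most 13 bases apart, and 0.0171% held such a pair with no spacer. No exact half-site was found in the windows of MIR34AHG, MALAT1, LINC-PINT or TP53TG1, which says only that these letters are not in these windows. The PURPL window held 0 CpG dinucleotides and the MIR34AHG window 38, where the median window held 14. Windows of 5 of the 7 lncRNAs were matched. No window is reported here for NEAT1 or PVT1, so nothing is said of half-sites at these genes. A match is a description of the letters and not evidence of binding.

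MIR34AHG spans chr1:9148011-9182338 and contains MIR34A. The mature miRNA is shown because the seed, bases 2 to 8 in capitals, defines which messenger RNAs it can pair with, and miR-449a from chromosome 5 carries the same seed.
hsa-miR-34a-5p: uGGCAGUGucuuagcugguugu
hsa-miR-449a: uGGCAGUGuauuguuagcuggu
The mature miRNA itself was not measured. The row of the MIR34A gene held 0 counts in all 12 libraries, which were made from poly(A) RNA.

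Total estimated counts per library ran from 27695914 in 5-Ph-IAA 1 to 34704725 in ATRi 1. Levels below are TMM-scaled counts-per-million values (CPM), differences are log2 fold changes ± standard error, and a gene passed when its Benjamini-Hochberg adjusted p over the 18049 genes tested was below 0.05 in edgeR's quasi-likelihood test. Comparisons share libraries, so their results are not independent of each other. The share of counts from the 37 genes of the mitochondrial genome ran from 6.63% in DMSO 3 to 14.9% in DMSO 2. The epithelial markers EPCAM and KRT8 were abundant in every library, with at least 332 and 1781 CPM, while VIL1 did not exceed 0.69 CPM. Of 12 markers of other cell types, PTPRC, CD3E, DCN and GFAP stayed at or below 0.18 CPM. COL1A1, a collagen gene, ran from 35.04 to 106 CPM and made up most of the sum, ACTA2, a smooth muscle actin gene, from 6.37 to 31.0 CPM, and ALB, the albumin gene, reached 2.65 CPM. The summed level of all 12 was 71.4 to 100.4 CPM in 5-Ph-IAA/ATRi, 48.2 to 116 CPM in 5-Ph-IAA, 58.1 to 106 CPM in ATRi and 42.6 to 118 CPM in DMSO.

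PURPL and MIR34AHG were higher after 5-Ph-IAA/ATRi than after DMSO, the only 2 of the 6 lncRNAs tested to pass, and no lncRNA of the 6 was lower. Over all genes, 13.1% passed in this comparison with 6.24% higher and 6.89% lower. The median log2 fold change of the 6 was 0.67, against -0.02 over all genes. Because the 6 were chosen with earlier results of these data known, these values are a description only. TP53TG1 was too low to be tested.

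PURPL (ENSG00000250337.10), at chr5:27472292-27496401, measured 20.0, 16.4 and 22.0 CPM in the 5-Ph-IAA/ATRi libraries, 3.30, 1.68 and 2.73 CPM in 5-Ph-IAA, 5.28, 3.08 and 5.02 CPM in ATRi, and 1.36, 1.30 and 0.91 CPM in DMSO. The 3 combination libraries were above every other library, and the libraries of each treated group lay above those of DMSO without overlap. Over all genes, 32.3% had libraries that did not overlap between the combination and DMSO, 3.37% between 5-Ph-IAA and DMSO, and 8.8% between ATRi and DMSO. Between the combination and 5-Ph-IAA this share was 27.6%, and between the combination and ATRi 26.9%. The PURPL mean was 19.5 ± 2.85 CPM in 5-Ph-IAA/ATRi and 1.19 ± 0.25 CPM in DMSO (SD, n = 3 each). The difference was 4.03 ± 0.31 on the log2 scale with an edgeR adjusted p of 2.61e-05, a 16.3-fold change, and 18 of the 18049 genes had a larger one. PURPL was also higher in the combination than in either single treatment. The log2 fold change was 2.92 ± 0.29 against 5-Ph-IAA (adjusted p = 0.00025 in edgeR) and 2.12 ± 0.28 against ATRi (adjusted p = 0.00332 in edgeR). All 3 differences passed without any single library of the groups compared.

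Under ATRi alone PURPL averaged 4.46 ± 1.20 CPM, and its log2 fold change against DMSO was 1.91 ± 0.29, with an edgeR adjusted p of 0.0509 that narrowly missed the threshold. It passed under 6 of 10 other analysis settings and in 0 of 6 fits that left out a library. Under 5-Ph-IAA alone PURPL averaged 2.57 ± 0.82 CPM, with a log2 fold change of 1.11 ± 0.30 and an edgeR adjusted p of 1. Of all genes, 0.0665% passed for ATRi and 0.00554% for 5-Ph-IAA against DMSO, and none of the 6 lncRNAs did in edgeR. At an unadjusted p below 0.05, PURPL and MIR34AHG qualified in both comparisons, as did 1.32% of all genes for 5-Ph-IAA and 4.86% for ATRi. DESeq2 called these 2 for ATRi and 0 for 5-Ph-IAA, and limma-voom called 0 in both. The shares of all genes that DESeq2 and limma-voom called are not given here. Whether the combination exceeds the sum of both single log2 changes was tested as an interaction. For PURPL the interaction was 1.01 ± 0.40, with an unadjusted p of 0.0275 and an edgeR adjusted p of 0.607. The interaction passed for 0.0776% of all genes, with 0.0111% above 0 and 0.0665% below 0, and for none of the 6 lncRNAs in edgeR, DESeq2 or limma-voom, and PURPL was the 1 lncRNA with an unadjusted p below 0.05, as were 7.3% of all genes.

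**Figure D1:**
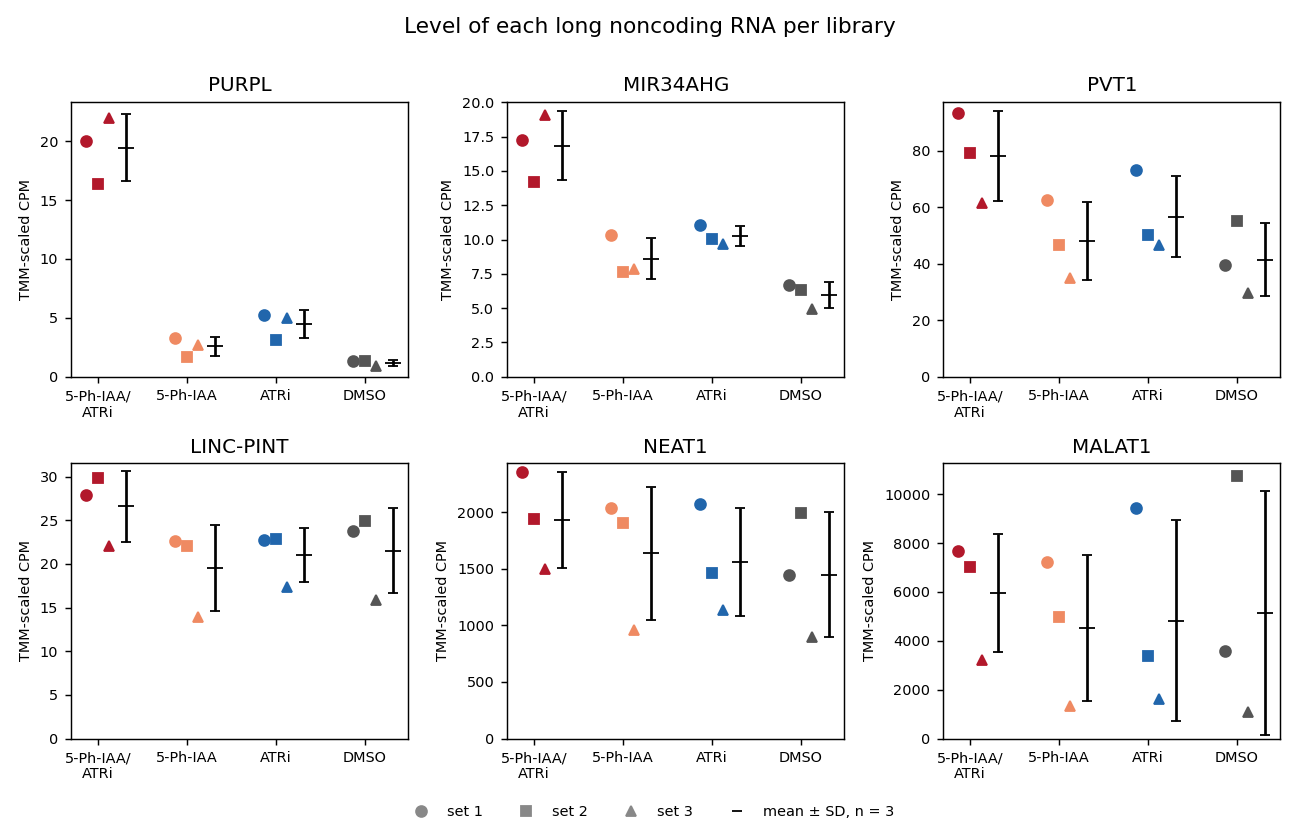
Level of 6 long noncoding RNAs in TMM-scaled CPM (y axes from 0) in the 12 libraries, by group on the x axis, with point shape for the set number and black bars for the mean ± SD of 3 libraries. The 3 combination libraries stood apart from all others for PURPL (16.4 to 22.0 CPM) and MIR34AHG (14.2 to 19.1 CPM), while MALAT1 had both its highest and its lowest library in DMSO.

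MIR34AHG (ENSG00000228526.8) followed the same order of groups with smaller differences. It measured 17.3, 14.2 and 19.1 CPM in 5-Ph-IAA/ATRi, 10.3, 7.63 and 7.83 CPM in 5-Ph-IAA, 11.1, 10.0 and 9.70 CPM in ATRi, and 6.71, 6.34 and 4.90 CPM in DMSO. The combination libraries were again the highest and the DMSO libraries the lowest, with no overlap between DMSO and any treated group, but the single treatments overlapped each other. Of all genes, 32.3% did not overlap between the combination and DMSO, 27.6% between it and 5-Ph-IAA, and 26.9% between it and ATRi. Against DMSO the share was 3.37% for 5-Ph-IAA and 8.8% for ATRi. The mean was 16.8 ± 2.49 CPM in 5-Ph-IAA/ATRi and 5.98 ± 0.96 CPM in DMSO, a log2 fold change of 1.49 ± 0.18 (edgeR adjusted p = 0.000458). Against 5-Ph-IAA the combination was higher by 0.97 ± 0.18 (edgeR adjusted p = 0.00687), and both differences held without any single library.

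Against ATRi the combination had a MIR34AHG log2 fold change of 0.71 ± 0.18 with an edgeR adjusted p of 0.0513. It passed under 7 of 10 other settings and in 0 of 6 fits that left out a library. PURPL was thus the 1 of 6 lncRNAs to pass in this comparison, where 3.51% of all genes passed, 1.63% as higher and 1.88% as lower. In 5-Ph-IAA/ATRi against 5-Ph-IAA, PURPL and MIR34AHG passed, where 9.41% of all genes did, 4.38% as higher and 5.04% as lower. MIR34AHG against DMSO was 0.78 ± 0.18 in ATRi (edgeR adjusted p = 0.269) and 0.52 ± 0.18 in 5-Ph-IAA (edgeR adjusted p = 1). Its interaction was 0.19 ± 0.25, with an edgeR adjusted p of 0.999.

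LNCTAM34A, an RNA read from the opposite strand at the MIR34A locus, had a log2 fold change of 1.56 ± 0.41 in the combination against DMSO (edgeR adjusted p = 0.0281). It measured 4.36, 5.37 and 2.55 CPM in 5-Ph-IAA/ATRi, against 1.21, 2.22 and 0.76 CPM in DMSO. The call was lost without DMSO 1, DMSO 3, 5-Ph-IAA/ATRi 1 or 5-Ph-IAA/ATRi 2, with an adjusted p of up to 0.108. The library kit keeps strand, but the strand setting of the counting is not given in the sources used here, so the reads of MIR34AHG and LNCTAM34A may not be fully separated.

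Across all 12 libraries log2 CPM of PURPL and MIR34AHG had a Pearson r of 0.97, and 0.72 after each group's mean was removed. The genes most like PURPL over the 12 libraries, among 11418 compared, were TLCD1 (r = 0.984), TRAF4 (r = 0.981) and DNAI3 (r = 0.979). Those most like MIR34AHG were ADAMTS7 (r = 0.976), EPS8L2 (r = 0.972) and NTPCR (r = 0.969).

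**Figure D2:**
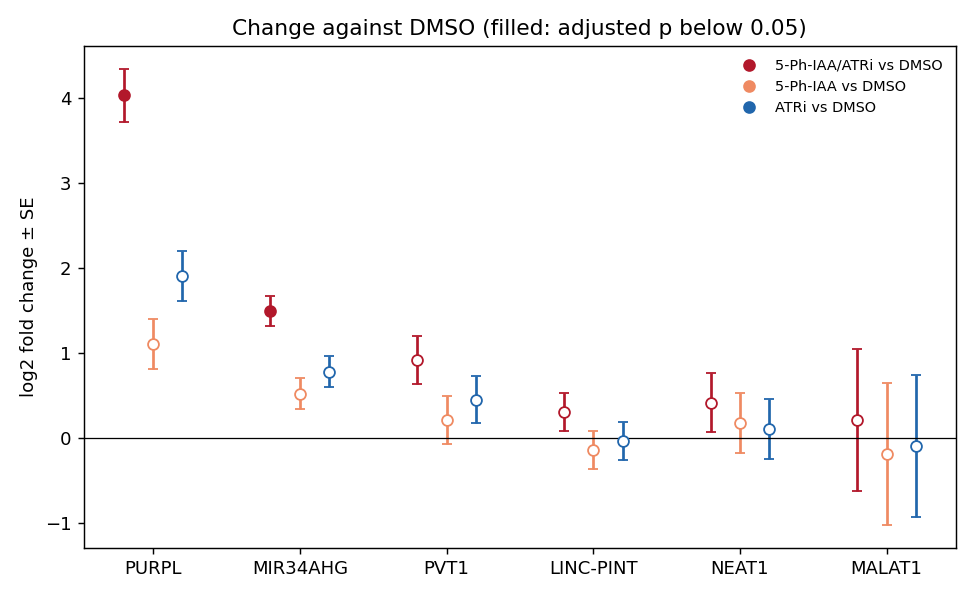
Log2 fold change against DMSO (y axis) of the 6 long noncoding RNAs tested (x axis) in 5-Ph-IAA/ATRi, 5-Ph-IAA and ATRi, with bars for the standard error and filled points for an edgeR adjusted p below 0.05. PURPL at 4.03 and MIR34AHG at 1.49 in the combination are the 2 filled points, and the MALAT1 bars are the widest, with a standard error of 0.83.

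PVT1 (ENSG00000249859.14), the RNA of the gene next to the oncogene MYC on chromosome 8 and the host of several miRNAs, came closest to the threshold among the others. It measured 93.5, 79.3 and 61.5 CPM in 5-Ph-IAA/ATRi, 62.7, 46.5 and 34.96 CPM in 5-Ph-IAA, 73.2, 50.3 and 46.7 CPM in ATRi, and 39.6, 55.2 and 29.5 CPM in DMSO. The combination libraries did not overlap those of DMSO, as for 32.3% of all genes, but overlapped those of both single treatments. The log2 fold change against DMSO was 0.91 ± 0.28, with an edgeR adjusted p of 0.0532. It passed under 6 of 10 other settings and in 1 of 6 fits that left out a library. That fit, without DMSO 2, gave 1.173 with an edgeR adjusted p of 0.023. The lowest value of the 6 fits was 0.71, and the largest edgeR adjusted p was 0.178. Among the settings passed, the set number as a block called 25.3% of all genes and the mitochondrial share as a covariate 35.7%. Against 5-Ph-IAA the log2 fold change was 0.70 ± 0.28 (edgeR adjusted p = 0.155), and against ATRi 0.46 ± 0.28 (edgeR adjusted p = 0.467).

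MYC, which lies 51.6 kb before PVT1, did not pass in the main fit. The MYC log2 fold change was 0.54 in 5-Ph-IAA/ATRi against DMSO (edgeR adjusted p = 0.423). With the share of mitochondrial counts as a covariate, MYC had 1.03 (edgeR adjusted p = 0.000165), where 35.7% of all genes were called. Its levels were 225, 219 and 324 CPM in 5-Ph-IAA/ATRi, against 204, 88.5 and 237 CPM in DMSO. MYC was lowest in DMSO 2, the DMSO library in which PVT1 was highest. The genes most like PVT1 were ARVCF (r = 0.987), PNPLA2 (r = 0.975) and ZNF337 (r = 0.974).

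LINC-PINT (ENSG00000231721.8), at chr7:130877562-131109925, is a p53-induced RNA that interacts with the silencing complex PRC2, and it did not pass in any comparison of the main fit. With the set number as a block it passed in 5-Ph-IAA/ATRi against DMSO (edgeR adjusted p = 0.0399) and against 5-Ph-IAA (edgeR adjusted p = 0.00976). That block called 25.3% and 19.6% of all genes in these comparisons. It measured 27.9, 29.9 and 22.0 CPM in 5-Ph-IAA/ATRi, 22.6, 22.1 and 13.9 CPM in 5-Ph-IAA, 22.7, 22.9 and 17.4 CPM in ATRi, and 23.7, 24.9 and 15.9 CPM in DMSO. In every group the set 3 library was the lowest, and all groups overlapped, while the combination library was the highest of each set. The log2 fold change in the combination against DMSO was 0.31 ± 0.23 (edgeR adjusted p = 0.44) and between 0.12 and 0.42 without 1 library. It was -0.14 ± 0.23 in 5-Ph-IAA and -0.03 ± 0.23 in ATRi (edgeR adjusted p = 1 for both). Both single-treatment values changed sign when 1 library was left out.

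NEAT1 (ENSG00000245532.11), at chr11:65422798-65445540, measured 2353, 1946 and 1497 CPM in 5-Ph-IAA/ATRi, 2040, 1910 and 961 CPM in 5-Ph-IAA, 2076, 1464 and 1139 CPM in ATRi, and 1449, 1999 and 895 CPM in DMSO. The groups overlapped throughout, and set 3 was the lowest library in each. The mean was 1932 ± 428 CPM in 5-Ph-IAA/ATRi and 1447 ± 552 CPM in DMSO. The log2 fold change was 0.42 ± 0.35 in the combination against DMSO (edgeR adjusted p = 0.502) and between 0.16 and 0.72 without 1 library. It was 0.18 ± 0.35 in 5-Ph-IAA and 0.11 ± 0.35 in ATRi (edgeR adjusted p = 1 for both).

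MALAT1 (ENSG00000251562.11), at chr11:65497738-65506516, was the most variable of the 6. It measured 7659, 7014 and 3199 CPM in 5-Ph-IAA/ATRi, 7234, 4984 and 1330 CPM in 5-Ph-IAA, 9450, 3393 and 1631 CPM in ATRi, and 3597, 10732 and 1088 CPM in DMSO. The highest and the lowest of the 12 libraries were both DMSO libraries, 9.87-fold apart, and MALAT1 took from 0.112% to 1.02% of a library's counts. Its SD within groups was 1.27 on the log2 scale, and 1.2% of the tested genes had a larger one. The log2 fold change was 0.21 ± 0.83 in the combination against DMSO (edgeR adjusted p = 0.91), -0.19 ± 0.83 in 5-Ph-IAA and -0.09 ± 0.83 in ATRi (edgeR adjusted p = 1 for both). Without DMSO 2 the values were 0.95 in 5-Ph-IAA and 1.04 in ATRi, both still short of the threshold, so at this spread neither a fall nor a rise of MALAT1 was detectable. TALAM1, the RNA antisense to MALAT1, followed it across the 12 libraries (r = 0.928), and with the strand setting not given their reads may not be fully separated.

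Per kilobase of the longest transcript in GENCODE 29, MALAT1 had the highest level, with 684 CPM per kb in 5-Ph-IAA/ATRi and 590 CPM per kb in DMSO. NEAT1 followed with 85.0 and 63.6 CPM per kb in the same groups, then PVT1 with 46.0 and 24.4. PURPL stood at 12.1 CPM per kb in 5-Ph-IAA/ATRi and 0.739 in DMSO, LINC-PINT at 7.59 and 6.14, and MIR34AHG at 3.78 and 1.34. By this length PURPL ranked above LINC-PINT in the combination and below MIR34AHG in DMSO. The ranks depend on the length chosen, and no other length was tried. Annotated transcripts ran from 512 to 22743 bases for NEAT1, 113 to 1699 for PVT1 and 387 to 3505 for LINC-PINT. Which isoforms gave the counts was not examined. The longest NEAT1 transcript holds a run of 22 A bases and the longest MALAT1 transcript a run of 13.

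Within groups, MALAT1 and NEAT1 followed the share of mitochondrial counts of the library. The share averaged 12.2 ± 1.63% in 5-Ph-IAA/ATRi, 10.1 ± 3.4% in 5-Ph-IAA, 10.6 ± 3.0% in ATRi and 9.81 ± 4.49% in DMSO. Over the 12 libraries log2 CPM of MALAT1 against this share had a Pearson r of 0.932 and a Spearman rho of 0.923, and NEAT1 had 0.904 and 0.923. With each group's mean removed r was 0.931 for MALAT1 and 0.898 for NEAT1. Leaving out DMSO 3 and 5-Ph-IAA 3, whose shares lay farthest from the median, r was 0.893 and 0.850 for these 2 genes. Library sizes computed without mitochondrial genes left r at 0.933 for MALAT1 and 0.904 for NEAT1. These are descriptions over 12 libraries that share depth and composition, and the part of the mitochondrial share in the levels was not tested. In every group the set 3 library had the lowest share and also the lowest MALAT1 and NEAT1 level. These shares were 10.7% in 5-Ph-IAA/ATRi, 6.79% in 5-Ph-IAA, 7.40% in ATRi and 6.63% in DMSO. A relation to the share was not separated from a difference of set 3.

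**Figure D3:**
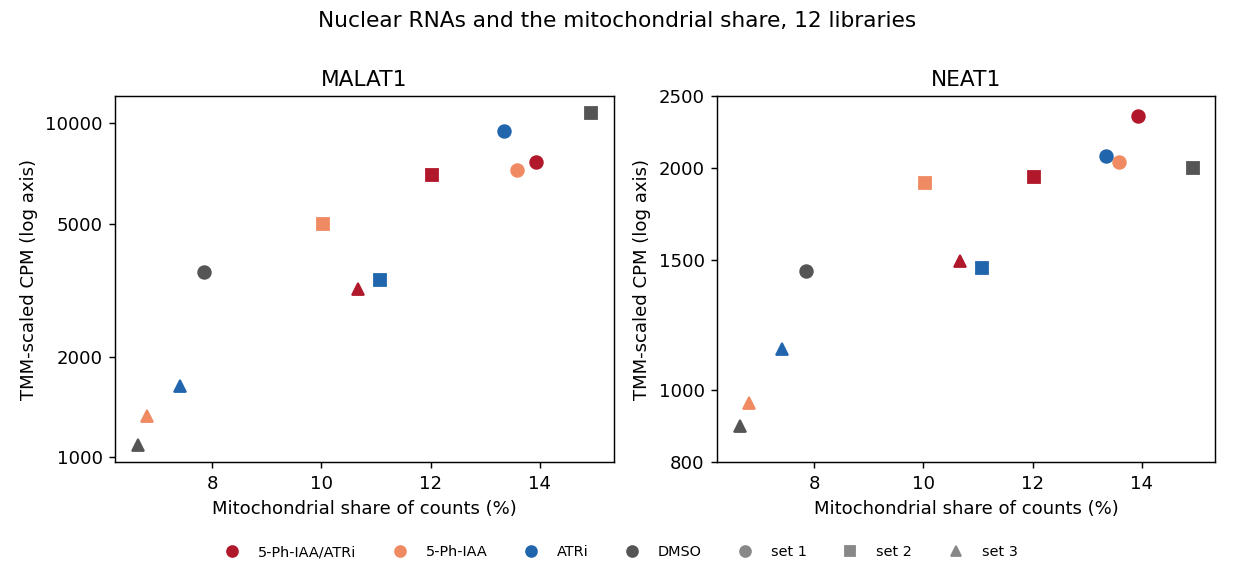
MALAT1 and NEAT1 levels (TMM-scaled CPM, log axes) against the percent of counts from the mitochondrial genome in 12 libraries, coloured by group, with point shape for the set number. DMSO 3, at 6.63%, had the lowest level of both RNAs, and DMSO 2, at 14.9%, had the highest MALAT1 level at 10732 CPM.

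The relation was not particular to the nuclear RNAs. Of 18034 genes outside the mitochondrial genome, 1312 had a within-group r above 0.9 and 1562 had one below -0.9. A within-group r at least as high as that of MALAT1 was found in 3.47% of these genes, and as high as that of NEAT1 in 7.42%. PVT1 had a within-group r of 0.932 and LINC-PINT 0.768, while MIR34AHG had 0.504 and PURPL 0.219. With the mitochondrial share as a covariate, the log2 fold change in the combination against DMSO was -0.25 for MALAT1 and 0.13 for NEAT1. For PVT1 it was 0.68 with an edgeR adjusted p of 0.00135, against 0.91 in the main fit. Under that covariate 35.7% of all genes were called, against 13.1% in the main fit.

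MALAT1, NEAT1, PVT1 and LINC-PINT also moved with each other. Within groups NEAT1 and MALAT1 had r = 0.980, MALAT1 and PVT1 r = 0.960, NEAT1 and PVT1 r = 0.951, and NEAT1 and LINC-PINT r = 0.924. PURPL had a within-group r of 0.145 with NEAT1 and 0.201 with MALAT1. The genes most like MALAT1 were CIR1 (r = 0.977), RNF7 (r = 0.976) and ALKBH2 (r = 0.976). Those most like NEAT1 were ARSA (r = 0.965), ATG16L2 (r = 0.964) and ZNF213-AS1 (r = 0.963), and those most like LINC-PINT were NUP50-DT (r = 0.951), EIF3H (r = 0.936) and ABHD14B (r = 0.934).

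**Figure D4:**
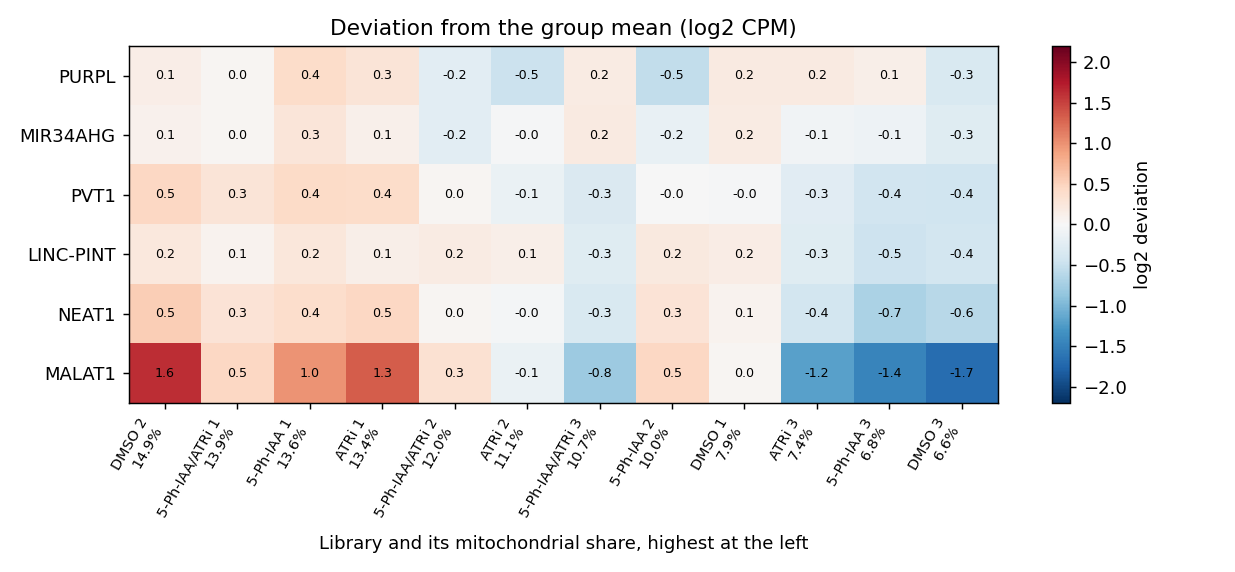
Difference of each library from its group mean in log2 CPM (colour and printed value) for 6 long noncoding RNAs (rows), with libraries ordered by their mitochondrial share from 14.9% at the left to 6.63% at the right. MALAT1, NEAT1, PVT1 and LINC-PINT are positive at the left end and negative at the right end, without a steady order between, while PURPL shows no such pattern. All set 3 libraries are negative for MALAT1, NEAT1, PVT1 and LINC-PINT, including 5-Ph-IAA/ATRi 3 at 10.7%. To its right, 5-Ph-IAA 2 at 10.0% and DMSO 1 at 7.85% are positive for MALAT1, NEAT1 and LINC-PINT.

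TP53TG1 (ENSG00000182165.20), at chr7:87325347-87345492, held 3 counts in all 12 libraries together. The combination had 1 count, ATRi had 2, and 5-Ph-IAA and DMSO had 0. A count of 0 allows up to 0.032 CPM over the pooled 5-Ph-IAA libraries and 0.0315 CPM over the pooled DMSO libraries, for counting error only. No difference was detectable at this depth. Its nearest coding neighbour CROT, which begins 172 bases away, held at most 4 counts in any library.

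Other p53-linked long noncoding RNAs were looked at next to these. Of 12 listed, 8 were tested, and 4 were higher in the combination against DMSO and 0 lower, with a median of 1.08. Over all genes, 6.24% were higher and 6.89% lower in this comparison. PINCR, a p53-induced RNA described in colorectal cancer cells, had a log2 fold change of 3.99 ± 0.58 (edgeR adjusted p = 0.0013). This rested on 53, 45 and 29 counts in 5-Ph-IAA/ATRi, against 1, 1 and 7 in DMSO. DINOL, an RNA from near CDKN1A that stabilises p53, had 3.19 ± 0.65 (edgeR adjusted p = 0.0086) on 11, 12 and 12 counts in 5-Ph-IAA/ATRi, against 2, 2 and 0 in DMSO. The imprinted RNA H19 had 1.43 ± 0.35 (edgeR adjusted p = 0.019), a call held in 1 of 6 fits that left out a library, namely that without DMSO 3. LNCTAM34A was the fourth. The count was 2 without DMSO 1, 5-Ph-IAA/ATRi 1 or 5-Ph-IAA/ATRi 2.

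Of 30 coding genes known as p53 targets, 28 were tested. In the combination against DMSO 24 were higher and 0 lower, where 6.24% of all genes were higher. In ATRi 6 passed, where 0.0665% of all genes did. The median log2 fold change was 1.73 in the combination, 0.78 in ATRi and 0.43 in 5-Ph-IAA. BBC3, SESN2 (-0.36), TNFRSF10B and GADD45A did not pass in the combination. Fits that left out a library called 21 to 25 as higher, and GDF15, RRM2B and CCNG1 each held in 1 of 6 such fits. FDXR, a mitochondrial reductase gene, CDKN1A, which encodes the cell cycle inhibitor p21, PHLDA3, an inhibitor of AKT, and TP53I3 had the smallest adjusted p. CDKN1A measured 2025, 2110 and 2047 CPM in 5-Ph-IAA/ATRi, against 230, 188 and 234 CPM in DMSO, a log2 fold change of 3.24 ± 0.19. PURPL at 4.03 lay above the highest of the 28 coding targets, TP53I3 at 3.47, although no test of that difference was made. An exact half-site was present in the promoter windows of 7 of 25 coding targets, and a pair of half-sites with at most 2 mismatches in those of 3 of the 25, against 1.81% of 27305 genes.

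Of 24 other abundant long noncoding RNAs, 1 was higher and 2 were lower in the combination against DMSO, with a median of 0.04. They passed about as often as genes at large, of which 6.24% were higher and 6.89% lower. MIR22HG, the host of miR-22, had a log2 fold change of 1.48 ± 0.31 (edgeR adjusted p = 0.00937). TMPO-AS1 fell by 1.53 ± 0.36 (edgeR adjusted p = 0.0161) and OIP5-AS1 fell by 0.38 ± 0.10 (edgeR adjusted p = 0.0343). TMPO-AS1 was not called without DMSO 1, DMSO 3 or 5-Ph-IAA/ATRi 1, and OIP5-AS1 was not called without any 1 of the 6 libraries.

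Messenger RNAs of proteins that work with NEAT1 and MALAT1 passed about as often as genes at large, of which 13.1% did, 6.89% as lower. Of 22 paraspeckle proteins, 3 were lower in the combination against DMSO and 0 higher, with a median of -0.27. These were HNRNPA1 with -0.50 ± 0.12 (edgeR adjusted p = 0.017), RBM3 with -0.56 ± 0.13 (edgeR adjusted p = 0.018) and HNRNPH3 with -0.39 ± 0.10 (edgeR adjusted p = 0.0294). No paraspeckle gene was called without DMSO 1 or without 5-Ph-IAA/ATRi 1, and 2, 1, 2 and 1 were called without DMSO 2, 5-Ph-IAA/ATRi 2, DMSO 3 and 5-Ph-IAA/ATRi 3. Of 18 nuclear speckle proteins, the splicing factor genes SRSF7 (-0.65 ± 0.12, edgeR adjusted p = 0.00482) and SRSF3 (-0.43 ± 0.11, edgeR adjusted p = 0.03) were lower and 0 were higher. SRSF3 was lost without any 1 of the 6 libraries. With the mitochondrial share as a covariate, 10 paraspeckle genes were lower and 2 higher, and 6 speckle genes were lower and 1 higher. Under that covariate 35.7% of all genes were called, 17.6% as higher and 18.1% as lower, and without 1 library the share of all genes called was between 6.67% and 12.9%.

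Of 22 known miR-34a targets, 20 were tested, and 2 were higher and 2 lower in the combination against DMSO, with a median of 0.08. Over all genes, 6.24% were higher and 6.89% lower in this comparison. NOTCH1, a receptor gene, had 0.72 ± 0.16 (edgeR adjusted p = 0.0113), and CCND1, which encodes cyclin D1, had 1.38 ± 0.35 (edgeR adjusted p = 0.023). FOXP1 had -1.13 ± 0.30 (edgeR adjusted p = 0.0312) and CDK4 -0.47 ± 0.14 (edgeR adjusted p = 0.049). None of the 20 was called without DMSO 1, 5-Ph-IAA/ATRi 1 or 5-Ph-IAA/ATRi 3, and with the mitochondrial share as a covariate 7 were higher and 4 lower, where 35.7% of all genes were called. No direction of the list as a whole was seen.

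The 13 messenger RNAs of the mitochondrial genome had log2 fold changes of 0.07 to 0.66 in the combination against DMSO, with a median of 0.44 and a smallest adjusted p of 0.244. In the combination against DMSO, where 6.24% of all genes were higher and 6.89% lower, 3 of 7 epithelial markers tested were higher and 0 lower. These were KRT8 (1.35 ± 0.14, edgeR adjusted p = 0.000191), KRT18 (1.04 ± 0.26, edgeR adjusted p = 0.0224) and KRT19 (0.89 ± 0.20, edgeR adjusted p = 0.0122). CDH1 had 0.06, CLDN4 0.13, CDX2 0.17 and EPCAM -0.35 ± 0.18 (edgeR adjusted p = 0.243). With the mitochondrial share as a covariate EPCAM was -0.48 with an edgeR adjusted p of 0.00302, where 35.7% of all genes were called. KRT18 was called in 1 of 6 fits that left out a library, namely that without DMSO 2, and KRT19 was lost without DMSO 1. Of the 5 other markers that could be tested, ACTA2 (1.91 ± 0.21, edgeR adjusted p = 0.00023) and CD14 (2.42 ± 0.37, edgeR adjusted p = 0.00183) were higher, CD14 at no more than 0.75 CPM.

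Among neighbouring coding genes, FRMD8, which lies 9.27 kb before NEAT1, was higher in the combination against DMSO by 0.81 ± 0.14 (edgeR adjusted p = 0.00362). It measured 59.0, 59.9 and 62.2 CPM in 5-Ph-IAA/ATRi, against 30.2, 35.4 and 37.4 CPM in DMSO, with no overlap, as for 32.3% of all genes. KLF14, 143 kb from LINC-PINT, had 0.82 ± 0.22 (edgeR adjusted p = 0.031), held in 1 of 6 fits that left out a library, namely that without DMSO 2. MKLN1, which begins 169 bases from LINC-PINT, had 0.01 (edgeR adjusted p = 0.985). Beside MIR34AHG, GPR157 had 0.47 (edgeR adjusted p = 0.452) and H6PD -0.56 (edgeR adjusted p = 0.0646), and TMEM243 beside TP53TG1 had 0.31 (edgeR adjusted p = 0.314). With the mitochondrial share as a covariate, 4 of 8 neighbours tested were higher and 1 lower, where 35.7% of all genes were called. GPR157 then had 0.92 (edgeR adjusted p = 0.000816) and H6PD -0.46 (edgeR adjusted p = 0.0222). H6PD also passed with the set number as a block (edgeR adjusted p = 0.00748), where 25.3% of all genes did.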

How the data were processed

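Poly(A) RNA of 12 libraries, 3 per group, was sequenced by the authors with a directional kit, per the labels' protocols. Groups and set numbers come from the sample titles, and the series' design text calls the 3 libraries of a group biological replicates. The deposited table holds estimated counts per gene made by the authors. The submitters' processing notes name Salmon 1.10.1, STAR 2.7.9a, Trim Galore 0.6.7 and build GRCh38.p14. Neither the annotation release nor the strand setting is given in the sources used here. Among deposited values 13.6% were not whole, and they were rounded for the tests.

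Counts were scaled by TMM, filtered with filterByExpr (minimum count 10, total 15), which kept 18049 genes and at least 99.89% of each library's counts, and tested with edgeR 4.0.16 (limma 3.58.1, R 4.3.3) in 1 model of 12 libraries with 1 mean per group. There were 5 pairwise comparisons and the interaction. The median biological coefficient of variation was 0.214. Log2 CPM used a pseudocount of 0.1. No 2 libraries of a group were copies of each other, with a chi-square per gene of 16.4 to 240.9 between them. The procedure was tested on simulated data. Alternatives were DESeq2 1.42.0 and its size factors, library totals, library sizes without mitochondrial genes, other count filters, limma-voom, the set number as a block, the mitochondrial share as a covariate, a fit of the compared groups alone, and leaving out each library. Refits of the other gene lists and neighbours were chosen after seeing the data.

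The 7 RNAs and all gene lists were chosen with earlier results of these data known. Named were all 7, up to 4 genes of each list by adjusted p, the 3 genes most alike among those with a symbol and a mean of at least 5 CPM, and the nearest coding genes. Values of some genes under this rule are not reported here. TALAM1 is named as the antisense partner of MALAT1, outside that rule. Counting floors are 3 counts. Coordinates, promoters and miRNAs are RefSeq's for GRCh38.p14, and transcript lengths are from GENCODE 29.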

Additional observations from a re-analysis of the deposited data

How the results depend on the processing

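The log2 fold changes of PURPL, and of MIR34AHG, in the combination against DMSO and against 5-Ph-IAA passed under all 10 other settings and without each library, as did PURPL against ATRi. For ATRi against DMSO the number of lncRNAs past the threshold was 0, and became 1 with library sizes without mitochondrial genes, no count filter, a filter of 1 CPM in 3 libraries, the set number as a replicate block, or the mitochondrial share as a covariate, and 2 with DESeq2. For that comparison the block called 0.554% and the covariate 0.676% of all genes, against 0.0665% in the main fit. For 5-Ph-IAA/ATRi against ATRi the number of lncRNAs was 1. It became 2 with DESeq2 size factors, the 1 CPM filter, DESeq2, limma-voom, the set block, the mitochondrial covariate or only the groups compared. Here the block called 11% and the covariate 17.7% of all genes, against 3.51% in the main fit. The shares of all genes called under the other settings are not given here. With the set number as a block the number for the combination was 4 against DMSO and 4 against 5-Ph-IAA. PVT1 and LINC-PINT were added (LINC-PINT edgeR adjusted p 0.0399 and 0.00976), while the block called 25.3% and 19.6% of all genes in these comparisons. Of 18 pairs of libraries with the same set number, 13 had correlated deviations above 0.1 (range -0.10 to 0.78). The 6 pairs of set 3 had 0.53 to 0.78, but 5 pairs of sets 1 and 2 did not reach 0.1, so the numbers were not taken as pairing. The block raised the calls of paraspeckle genes to 7 lower and 1 higher, of speckle genes to 4 lower and 1 higher, and of miR-34a targets to 4 in each direction. Leaving out 1 library gave 2 to 3 lncRNAs for the combination against DMSO, 2 to 2 against 5-Ph-IAA, 1 to 1 against ATRi and 0 to 0 otherwise.

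None of the values that changed sign passed the threshold, and the cause was not tested. For MALAT1 these were 0.058 in 5-Ph-IAA and 0.092 in ATRi against DMSO with limma-voom, 0.016 in ATRi against DMSO with the set block, and, with the mitochondrial covariate, -0.25 in the combination against DMSO and -0.14 against 5-Ph-IAA. For NEAT1 they were -0.0048 in the combination against 5-Ph-IAA and -0.017 in the interaction with that covariate. Leaving out 1 library, MALAT1 ranged from -0.28 to 1.34 for 5-Ph-IAA/ATRi against DMSO, from -0.70 to 0.95 for 5-Ph-IAA against DMSO, from -1.03 to 1.04 for ATRi against DMSO, from -0.046 to 0.91 for 5-Ph-IAA/ATRi against 5-Ph-IAA, from -0.11 to 1.24 for 5-Ph-IAA/ATRi against ATRi, from -0.65 to 1.43 in the interaction. Leaving out 1 library, NEAT1 ranged from -0.071 to 0.48 for 5-Ph-IAA against DMSO, from -0.15 to 0.41 for ATRi against DMSO, from -0.041 to 0.43 for 5-Ph-IAA/ATRi against 5-Ph-IAA, from -0.18 to 0.39 in the interaction. Leaving out 1 library, LINC-PINT ranged from -0.31 to 0.056 for 5-Ph-IAA against DMSO, from -0.21 to 0.086 for ATRi against DMSO. Leaving out 1 library, PVT1 ranged from -0.025 to 0.47 for 5-Ph-IAA against DMSO, from -0.015 to 0.48 in the interaction. The relation of MALAT1 and NEAT1 to the mitochondrial share moved by less than 0.1 in r under every setting tried. With 3 libraries a group, depth limits TP53TG1 and the spread between libraries limits MALAT1 and NEAT1.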
